A study of Mus musculus with 24 samples.

Results

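The 10 genes described here mark the luminal epithelium of the mammary gland: the keratins Krt8, Krt18, Krt19 and Krt7, the adhesion molecule Epcam, the claudins Cldn3 and Cldn7, the transcription factor Elf5, the milk protein gene Csn3 and the membrane protease Tmprss2. They were taken by symbol, not by their values, from a table of 16118 genes measured in inguinal white adipose tissue, the subcutaneous fat depot of the groin. All 10 were found and all 10 passed the filter on low read numbers that left 16005 genes for testing.

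In mice the inguinal fat pad houses a mammary gland, a tree of ducts embedded in the fat. Its ducts have an inner luminal layer, which faces the lumen and later makes milk, and an outer basal layer of contractile myoepithelial cells. The ducts of females lengthen and branch at puberty under estrogen, whereas androgens stop the growth of the mammary bud in male embryos to a degree that varies with the strain and the gland pair. Luminal cells are joined by tight junctions and carry simple-type keratins. These keratins separate them from fat cells, blood vessels and immune cells of the depot.

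Poly(A) RNA was sequenced from 24 mice, 1 library per mouse, in 6 groups of 4 animals. Males and females were taken at postnatal day 21 (p21), or at day 28 (p28) after standard weaning (SW, separation from the mother at p21) or after delayed weaning (DW, kept with the mother). The labels give no strain, genotype or treatment beyond this, the p21 animals carry the SW label, and the animal numbers tell the mice apart. The title of the series names prolonged breastfeeding and sex differences in fat remodelling as its subject. Levels below are the deposited normalised values, read numbers divided by 1 factor per library. They allow a gene to be compared between animals but not genes of different length with each other. Differences are in log2(value + 1), a scale that shrinks the changes of genes with low values.

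Recovered reads numbered 57600711 to 302145813 per library, so 1 read was worth at most 0.0154 of the normalised value. The 4 Y chromosome genes used to check sex had no read in any of the 12 females and summed to at least 245.3 in every male. Fat cell genes were high everywhere, with a list sum of 14155 to 24597 over all animals. In all, 3 libraries stood apart: over 9942 genes, the median correlation with the other libraries was 0.891 for DW female 83, 0.913 for DW female 82 and 0.92 for p21 male 53, against 0.938 to 0.971 for the rest. Male 53 also had the fewest detected genes, 14054 of 16118.

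**Figure D1:**
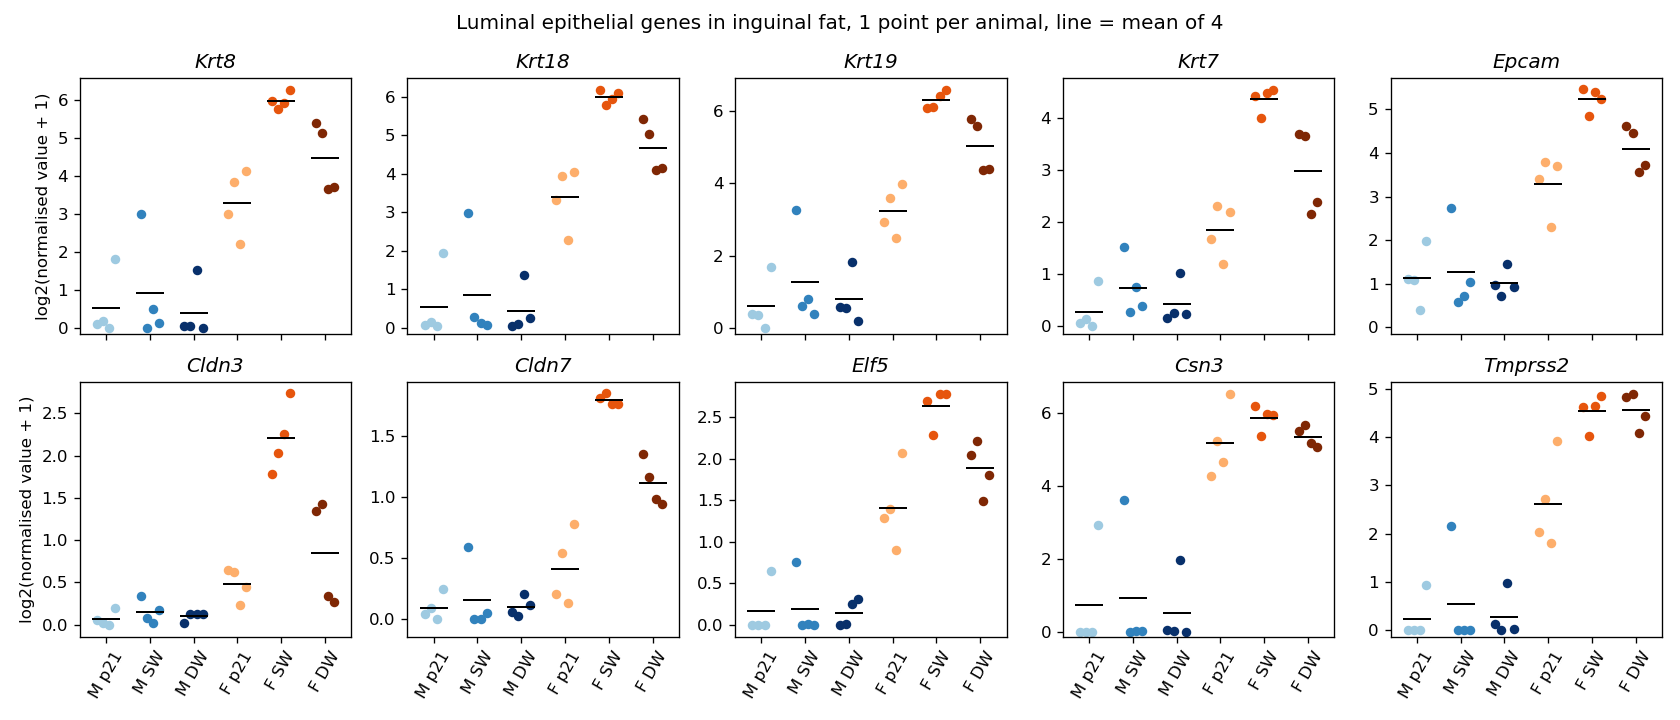
Level of each of the 10 luminal genes as log2(normalised value + 1), with 1 point per animal (M male, F female) and a line at the mean of 4. The SW females are the highest group for 9 of the 10 genes, and in each male group 1 animal lies above the other 3 for most genes.

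The members sit at separate places in the genome, apart from the keratin cluster. As deposited, Krt8 (chromosome 15, 101905133 to 101912917), Krt18 (chromosome 15, 101936615 to 101940462) and Krt7 (chromosome 15, 101308924 to 101328194) lie together, and Krt19 lies at 100031636 to 100039491 on chromosome 11. Cldn7 is also on chromosome 11 (69855605 to 69858711), Epcam is on chromosome 17 (87943407 to 87958557) and Cldn3 is on chromosome 5 (135015068 to 135016326). Csn3 (chromosome 5, 88073438 to 88080524), Elf5 (chromosome 2, 103242033 to 103281334) and Tmprss2 (chromosome 16, 97365882 to 97412395) complete the set. The submitters' processing notes name mm10, yet none of these 10 starts equals the RefSeq start in that build (GRCm38.p6), so the build of these positions is uncertain. In GENCODE release M21, exons of Krt8, Krt7 and Cldn3 overlap a transcript on the other strand (Gm36026, Gm671 and Wbscr25), and how strand was counted is not given in the sources used here, so such reads cannot be told apart. RefSeq also lists a pseudogene, Krt8-ps, and the value of Krt8 is uncertain by any reads the pair share.

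Promoters are shown because the members moved together across animals. RefSeq (GRCm38.p6) gave 10 promoters for 8 of the genes, each with 250 bases before and 50 bases after the transcript start; positions of this build are not to be compared with the deposited ones. Of 8 motifs searched on both strands, the E-box CACCTG, the site bound by repressors of the ZEB and SNAIL families, was in 8 of these 10 promoters, belonging to 7 of the 8 genes. It is in 20.21% of the 32851 mouse promoters of the same length. The 4 below are Krt8 (chr15:102004293-102004592, minus strand), Krt18 (chr15:102027966-102028265, plus strand), Epcam (chr17:87635729-87636028, plus strand) and Cldn3 (chr5:134985964-134986263, plus strand), written 5′ to 3′ with CACCTG or its reverse complement CAGGTG in capitals.
Krt8: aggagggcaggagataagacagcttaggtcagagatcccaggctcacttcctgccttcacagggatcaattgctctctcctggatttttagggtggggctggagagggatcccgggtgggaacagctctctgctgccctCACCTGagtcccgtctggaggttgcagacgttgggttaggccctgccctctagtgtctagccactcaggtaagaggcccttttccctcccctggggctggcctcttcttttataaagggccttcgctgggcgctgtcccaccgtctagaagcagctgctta
Krt18: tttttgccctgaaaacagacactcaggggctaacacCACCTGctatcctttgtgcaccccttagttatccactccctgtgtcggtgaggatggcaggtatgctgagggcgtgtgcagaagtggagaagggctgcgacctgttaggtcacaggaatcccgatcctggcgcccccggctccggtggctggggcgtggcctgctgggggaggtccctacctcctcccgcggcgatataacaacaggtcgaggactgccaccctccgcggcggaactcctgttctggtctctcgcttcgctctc
Epcam: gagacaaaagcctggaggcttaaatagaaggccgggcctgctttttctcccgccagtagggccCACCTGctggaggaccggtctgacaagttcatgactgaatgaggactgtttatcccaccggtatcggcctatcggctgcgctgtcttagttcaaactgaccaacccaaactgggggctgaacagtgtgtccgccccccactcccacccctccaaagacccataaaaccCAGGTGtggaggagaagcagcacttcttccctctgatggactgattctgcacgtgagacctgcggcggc
Cldn3: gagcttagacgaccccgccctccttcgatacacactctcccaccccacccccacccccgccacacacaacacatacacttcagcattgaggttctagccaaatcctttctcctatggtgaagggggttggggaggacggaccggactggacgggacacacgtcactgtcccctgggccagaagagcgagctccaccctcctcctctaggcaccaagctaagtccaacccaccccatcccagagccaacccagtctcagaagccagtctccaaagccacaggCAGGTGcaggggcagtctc
The match lies 111 bases before the start in Krt8 and 214 before it in Krt18, at 187 and 19 bases before it in Epcam, and 32 bases after it in Cldn3. GATAA was in 4 of the 10 promoters (25.41% of all promoters) and the ETS core GGAAG in 7 (71.41%). The AP-2 motif GCCNNNGGC was in 3 (16.59%), the STAT motif TTCNNNGAA in 1 (8.3%) and TATAAA in 1, that of Krt8 (13.62%). The grainyhead motif AACCNGTT (2.09%) and the forkhead motif TGTTTAC (3.65%) were in none of these windows. Motifs with N can overlap one another, and a match is a description of letters only.

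In females the luminal genes were present at p21 and much higher a week later after standard weaning, and in most males they were close to 0. The paired keratins Krt8 and Krt18, which build the filaments of simple epithelia together, showed this most clearly. Krt8 was 7.03, 13.4, 3.59 and 16.4 in p21 females 30, 36, 55 and 56, and 61.5, 52.7, 59.3 and 74.9 in SW females 73, 74, 75 and 81. In DW females 76, 77, 82 and 83 it was 41.1, 34.1, 11.5 and 12.0. The 3 groups of females did not overlap between p21 and SW or between SW and DW, while DW females 82 and 83 lay within the p21 range.

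Krt18 followed the same order, at 10.7 ± 5.36 in p21, 63.5 ± 7.51 in SW and 26.6 ± 12.5 in DW females (SD, n = 4 each). Krt19, a keratin of ductal cells, was 6.58, 11.0, 4.59 and 14.7 at p21, 65.7, 68.1, 84.0 and 93.4 in SW and 53.5, 46.4, 19.5 and 20.1 in DW females. Every DW female was above every p21 female and below every SW female for Krt19. Krt7, another keratin of ducts, was 2.73 ± 1.22 at p21, 19.6 ± 3.15 in SW and 7.78 ± 4.58 in DW females (SD, n = 4 each).

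Among the adhesion and junction genes, Epcam, which joins epithelial cells to each other, was 9.59 ± 4.03 at p21, 37.3 ± 6.71 in SW and 16.9 ± 6.36 in DW females (SD, n = 4 each). Cldn3, a sealing protein of tight junctions, was 0.568, 0.536, 0.173 and 0.358 at p21, 2.45, 3.10, 3.78 and 5.66 in SW and 1.53, 1.69, 0.269 and 0.208 in DW females. DW females 82 and 83 were therefore at the p21 level for Cldn3, on 34 and 22 reads. Cldn7, a tight junction protein that binds Epcam, was 0.354 ± 0.287, 2.47 ± 0.105 and 1.17 ± 0.285 (SD, n = 4 each), the tightest SW group of the 10 genes relative to its mean.

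Elf5, the ETS factor of luminal progenitors that drives alveolar differentiation, was 1.43, 1.63, 0.867 and 3.19 at p21, 5.51, 3.88, 5.91 and 5.87 in SW and 3.14, 3.65, 1.80 and 2.48 in DW females. Csn3, which encodes kappa-casein, the protein that keeps casein micelles in suspension, behaved differently. It was already 18.4, 36.9, 24.2 and 91.1 at p21, against 71.6, 40.7, 61.2 and 60.1 in SW and 44.9, 49.6, 34.9 and 32.5 in DW females. The 3 female groups overlapped for Csn3, and its highest value was in p21 female 56. Tmprss2, a serine protease of the luminal face of epithelia, was 3.11, 5.60, 2.49 and 14.1 at p21, 23.7, 15.3, 23.9 and 27.9 in SW and 27.6, 28.8, 16.0 and 20.7 in DW females, so SW and DW females overlapped and both exceeded p21.

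The same genes were sparse in males. In 9 of the 12 males the summed value of all 10 members was 0.339 to 2.60, against 45.1 to 171.8 in p21, 283.6 to 397.1 in SW and 115.1 to 250.9 in DW females. Epcam had reads in all 9, at 0.308 to 1.15. Csn3 was 0.0423 or less in these 9 males, and Tmprss2 had 0 reads in 3 males at p21, 3 after SW and 1 after DW. A count of 0 allows a value of up to 3 reads, which is 0.0107 to 0.0462 in the male libraries, counting error only.

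The remaining 3 males, 1 in each group, had higher levels of the set. P21 male 54, SW male 78 and DW male 86 were the highest of their group for 10, 10 and 9 of the 10 members. Their member sums were 19.8, 46.2 and 13.1. Csn3 was 6.65 in male 54, 11.3 in male 78 and 2.94 in male 86, and Krt8 was 2.52, 6.94 and 1.87. Male 78 was above p21 female 55 for 8 of the 10 genes, all but Csn3 and Elf5. No female was lower than the highest male of its group for any gene except Cldn7 at p21. The DW male exception was Elf5, which was highest in male 87 (0.239). In that library the desmosome gene Dsp was 18.2 and the basal keratin gene Krt5 2.52, Krt8 and Csn3 had 0 reads, and Epcam was 0.892.

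Females exceeded males at each age and under each weaning regime. At p21, 8 of the 10 genes were called higher in females by limma at a Benjamini-Hochberg adjusted p under 0.05, where 0.331% of all genes were called higher (0.356% in either direction). Females and males did not overlap for 9 of the 10, all but Cldn7, as happened for 2.98% of genes with females higher. Csn3 differed most, by 4.44 (SE 0.72, limma adjusted p 0.0054), then Krt18 by 2.85 (SE 0.55, limma adjusted p 0.017) and Krt8 by 2.76 (SE 0.58, limma adjusted p 0.034). Elf5 differed by 1.25 (SE 0.22, limma adjusted p 0.0082). Cldn3 (0.42, limma adjusted p 0.6) and Cldn7 (0.32, limma adjusted p 0.51) did not pass. Calls at this age were sensitive: edgeR with TMM on recovered reads called 0 and DESeq2 3 of the 10, each with all 10 at an unadjusted p under 0.05, and the count fell to 2 without male 37, male 38 or female 36, and to 1 without male 53 or female 56.

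After standard weaning all 10 were called higher in females (3.36% of genes higher, 3.54% in either direction), by 1.64 for Cldn7 to 5.14 for Krt18. The other large differences were 5.06 for Krt8 (SE 0.58), 5.02 for Krt19 (SE 0.52) and 4.95 for Csn3 (SE 0.72), with limma adjusted p of 4.5e-05 or less for every member. All 4 SW females were above all 4 SW males for each of the 10, as happened for 6.27% of all genes. On recovered reads, edgeR with TMM called 6 and DESeq2 7 of the 10, all higher in females, and Elf5, Csn3 and Tmprss2 passed in neither.

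After delayed weaning 9 of the 10 were called higher in females (1.89% of genes higher, 2.46% in either direction). Csn3 (4.84, SE 0.72) and Tmprss2 (4.29, SE 0.44) led, and Krt18 and Krt19 differed by 4.23 and 4.22. Cldn3 differed by 0.75 (limma adjusted p 0.061). On recovered reads edgeR with TMM and DESeq2 each called 8 of the 10: both called Cldn3, and both lost Csn3 (adjusted p 0.095 with edgeR and 0.092 with DESeq2) and Elf5 (0.070 and 0.087). Without females 82 and 83, limma called all 10, Cldn3 at 1.28. Every DW female was above every DW male for each gene (5.6% of all genes), DW females 82 and 83 included.

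**Figure D2:**
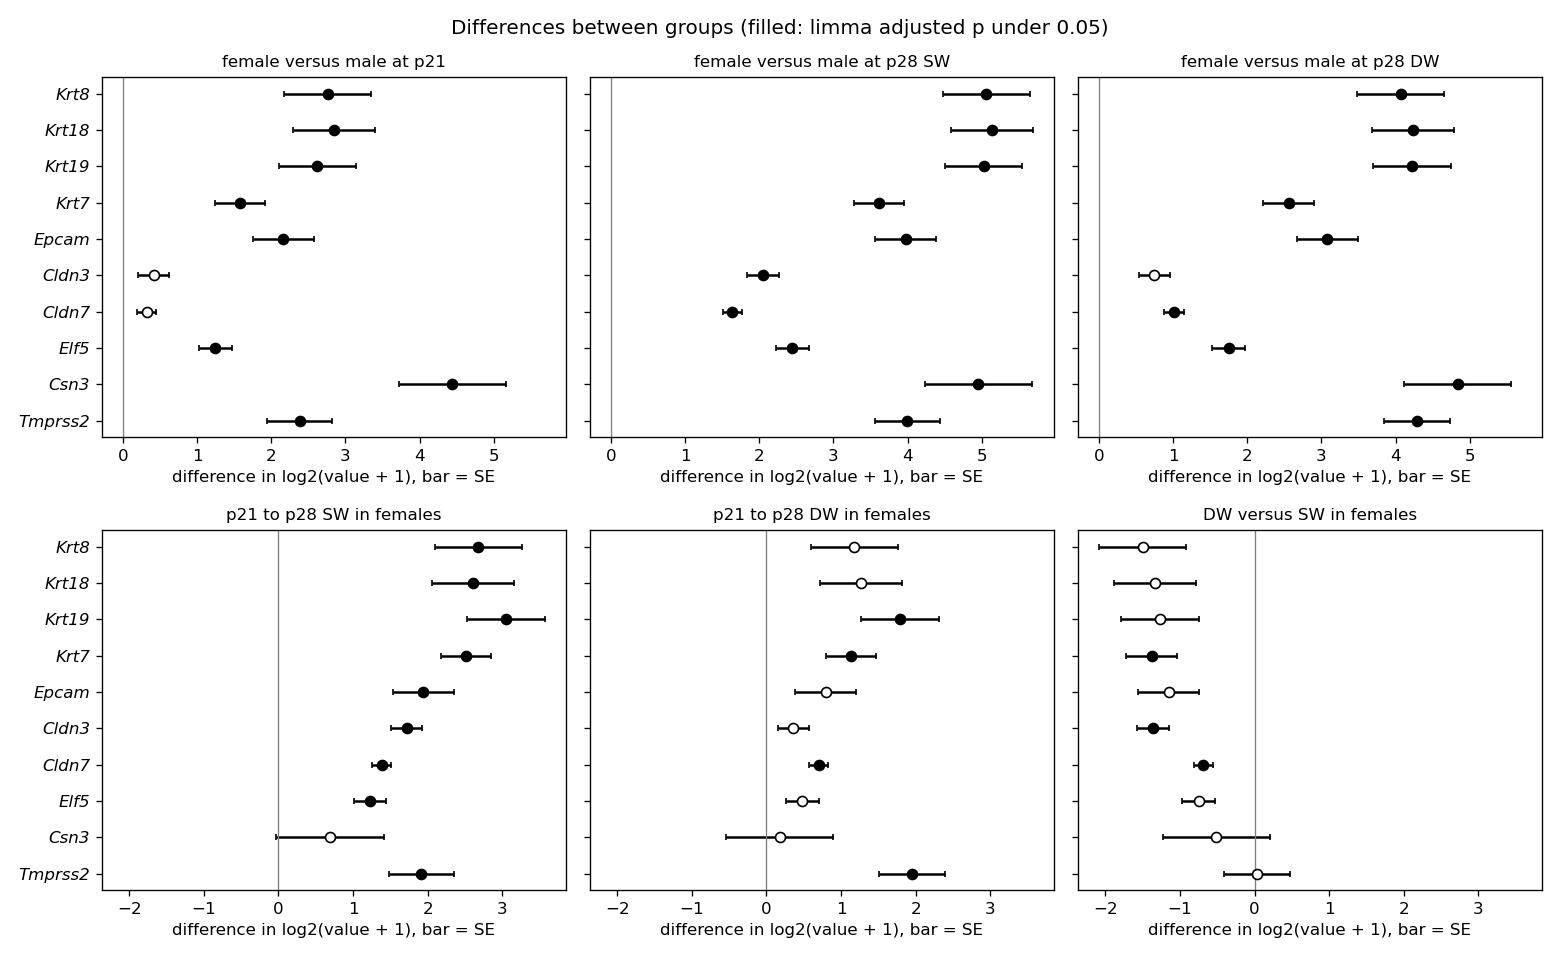
Differences in log2(normalised value + 1) for each luminal gene in 6 comparisons, with bars of 1 SE from the limma fit and filled points where the adjusted p is under 0.05. Sex differences at p28 reach 5.14 for Krt18, and in the DW against SW panel 9 of 10 points lie below 0 with 3 filled.

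From p21 to p28 under standard weaning, 9 of the 10 genes rose in females (7.39% of genes rose, 11.6% changed in either direction). In bulk tissue, more luminal cells and more RNA per luminal cell cannot be told apart. Krt19 rose by 3.05 (SE 0.52, limma adjusted p 0.00038), Krt8 by 2.68, Krt18 by 2.60 and Krt7 by 2.51. The junction genes Epcam, Cldn3 and Cldn7 rose by 1.94, 1.72 and 1.38, Tmprss2 by 1.92 and Elf5 by 1.23. All 9 separated every SW from every p21 female, as 11.4% of all genes did. Csn3 differed by 0.69 (SE 0.72, limma adjusted p 0.62). On recovered reads, edgeR with TMM and DESeq2 each called 4 of the 10, and limma called 9 whichever 1 animal was left out.

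Under delayed weaning 4 of the 10 rose from p21 to p28 in females, against 5.95% of all genes rising and 12.1% changing in either direction. Every DW female was above every p21 female for Krt18, Krt19, Cldn7 and Tmprss2, as for 7.44% of genes. The genes that rose were Tmprss2 (1.94, SE 0.44, limma adjusted p 0.006), Krt19 (1.79, SE 0.52), Krt7 (1.13, SE 0.34) and Cldn7 (0.70, SE 0.13). Krt8 (1.18), Krt18 (1.27), Epcam (0.79), Elf5 (0.48), Cldn3 (0.36) and Csn3 (0.18) did not pass. Without DW females 82 and 83, which stood apart from the rest, limma called 5 members, and 1392 of all genes in either direction. Cldn3 joined the 4 at 0.90 (limma adjusted p 0.0027). The differences were then 1.97 for Krt8 (limma adjusted p 0.078), 1.83 for Krt7, 1.24 for Epcam, 0.72 for Elf5 and 0.41 for Csn3. This comparison shares its p21 animals with the one before. With all animals the count was 0 with edgeR and TMM (1 unadjusted) and 0 with DESeq2 (0 unadjusted), 1 with a pseudocount of 0.1, and 2 with only the groups compared or without p21 female 30, p21 female 55, DW female 76 or DW female 77.

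In males none of the 10 was called between p21 and p28 or between weaning regimes. By limma 0 members were called from p21 to SW (11.9% of all genes in either direction), 0 from p21 to DW (15%) and 0 for DW against SW (0.256%), and 0 members had an unadjusted p under 0.05 by limma, edgeR or DESeq2 in any of the 3. The 3 high males stay in these groups, 1 in each, so the lack of calls does not show a lack of change. All 10 differences were above 0 from p21 to SW (0.03 to 0.65) and below 0 for DW against SW (-0.51 to -0.05). From p21 to DW 5 were above and 5 below 0. SW male 78 was the highest of its group for all 10 members and enters both comparisons with SW males. The share of all genes with each sign is not given here, so these counts cannot be called particular to the members. The sex by age interaction under SW, which asks whether females rose more than males, called Krt7 (2.04, SE 0.48, limma adjusted p 0.036), Cldn3 (1.64, SE 0.30, limma adjusted p 0.0046) and Cldn7 (1.32, SE 0.19, limma adjusted p 0.00034) among 0.962% of all genes with a larger rise in females (1.03% in either direction). Without SW male 78 it called 9 of the 10, and edgeR, DESeq2 and a pseudocount of 0.1 called 0 (0, 0 and 3 unadjusted). The interaction under DW called 0 members (3 unadjusted, 0.0687% of all genes called).

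Among females at p28, the luminal genes were lower after delayed than after standard weaning. Every DW female was below every SW female for 8 of the 10, all but Csn3 and Tmprss2, as happened for 3.52% of all genes. By limma 3 fell (0.812% of genes fell, 1.27% changed in either direction): Cldn3 by 1.36 (SE 0.21, limma adjusted p 0.0024), Cldn7 by 0.68 (SE 0.13, limma adjusted p 0.01) and Krt7 by 1.38 (SE 0.34, limma adjusted p 0.046). Krt8 (-1.50, limma adjusted p 0.2), Krt18 (-1.33), Krt19 (-1.26), Epcam (-1.15), Elf5 (-0.75) and Csn3 (-0.51) did not pass, and Tmprss2 was level (0.03, limma adjusted p 0.98).

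The size of this difference depended on DW females 82 and 83, which stood apart across the whole transcriptome. All 10 members were lower in both of them than in both other DW females. The share of all genes split this way is not given here, so this count cannot be called particular to the members. In log2(value + 1), the median difference of 82 and 83 from 76 and 77 was -0.04 over 9935 genes. Krt8 averaged 11.7 in 82 and 83 and 37.6 in 76 and 77, Cldn3 0.238 and 1.61, and Csn3 33.7 and 47.2. Without females 82 and 83, limma called 0 of the 10 (2 unadjusted). Over all genes its calls then went from 204 to 7, so the loss was not particular to the members. Krt8 then differed by -0.70, Cldn3 by -0.82 (limma adjusted p 0.098) and Cldn7 by -0.54 (limma adjusted p 0.43). The count of members was 1 without either animal alone, and 0 with edgeR, DESeq2 or only the groups compared (1, 1 and 9 unadjusted).

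The 2 libraries also differed from the other DW females by base composition. Over 9935 genes the difference of 82 and 83 from 76 and 77 correlated with transcript GC content (Pearson r -0.601, Spearman rho -0.609, across genes, which share the 4 libraries). Members range from 37.7% GC for Csn3 to 62.7% for Cldn3, against a median of 50.4% over all genes. Over the 10 members the same correlation was -0.511 (Pearson r, with Spearman rho -0.358). The deviation of single libraries correlated with GC at -0.43 in female 82, -0.62 in 83, 0.43 in 76 and 0.30 in 77. Libraries of other groups were skewed too, with -0.52 in p21 male 37 and 0.50 in SW female 81. When each library's trend over GC was removed, the DW minus SW differences were -1.24 for Krt8, -1.21 for Cldn3, -1.23 for Krt7 and -0.53 for Cldn7, and 3 of 10 were called. Skeletal muscle genes were low in some DW females as well, with a list sum from 4.89 to 2097 against 397.4 to 3477 in SW females, and their part in the luminal difference was not tested.

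**Figure D3:**
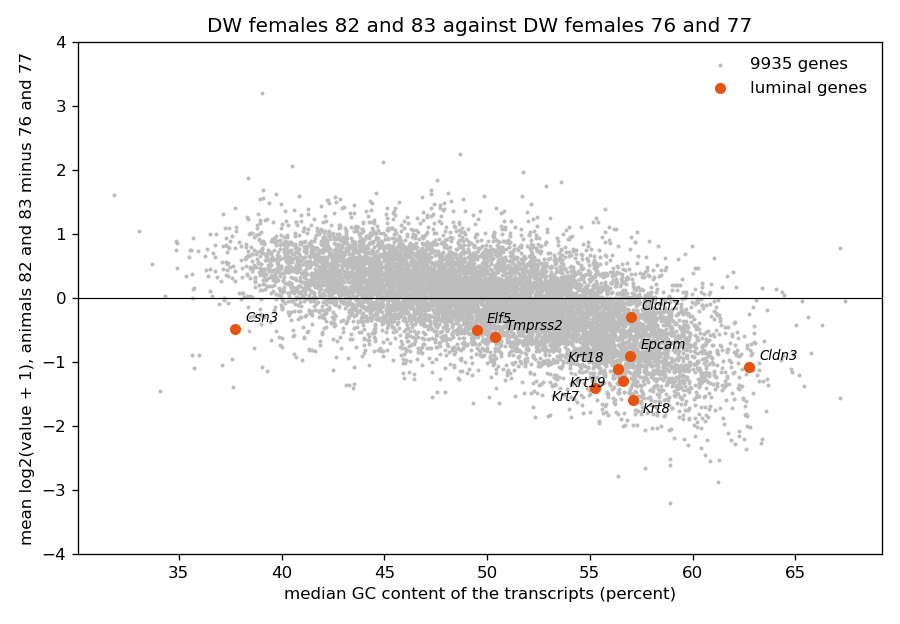
Mean difference in log2(normalised value + 1) of DW females 82 and 83 from DW females 76 and 77, against transcript GC content in percent, for 9935 genes (grey) and the 10 luminal genes (orange). The cloud falls with GC (r -0.601), and all 10 luminal genes lie below 0.

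Animal numbers at p28 fall in runs, which the labels do not call batches. In run 73 to 80 (3 SW and 2 DW females) 9 of the 10 genes were lower in DW, with a median difference of -0.58, and Tmprss2 was higher by 0.44. In run 81 to 87 (1 SW and 2 DW females) all 10 were lower, with a median of -1.80. The second run holds females 82 and 83 as its only DW females. The share of all genes lower in DW in each run is not given here, so these counts cannot be called particular to the members. The sex by weaning interaction called 0 members by limma (4 unadjusted), edgeR (0) and DESeq2 (0), where 0.0187% of all genes were called. The weaning difference was therefore not shown to differ between the sexes.

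The proportions among the members also differed between the groups. These shares are given as descriptions without a test. Csn3 made up 31.8% to 53.7% of the summed member value in p21 females, 14.4% to 19.5% in SW and 17.9% to 30.3% in DW females. The 4 keratins made up 29.3% to 42.8% at p21, 59.5% to 67% in SW and 43.5% to 59.2% in DW females. Neither share overlapped between p21 and SW females.

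The ratio of Csn3 to Krt8 was 2.62 to 6.74 in p21, 0.772 to 1.16 in SW and 1.09 to 3.04 in DW females. DW females 82 and 83, at 3.04 and 2.70, lay in the p21 range, and females 76 and 77, at 1.09 and 1.45, lay in or next to the SW range. Csn3 has low and Krt8 high GC content, and these 2 libraries had lower values for GC-rich genes, so the part of base composition in their ratio was not tested. In the 3 high males the ratio was 2.63 for number 54 (p21), 1.63 for number 78 (SW) and 1.57 for number 86 (DW). By contrast the ratio of Krt18 to Krt8 was steadier, at 0.908 to 1.39 over all 12 females and 0.854 to 1.12 in the 3 males. These ratios are not corrected for gene length, so only their differences between animals can be read.

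**Figure D4:**
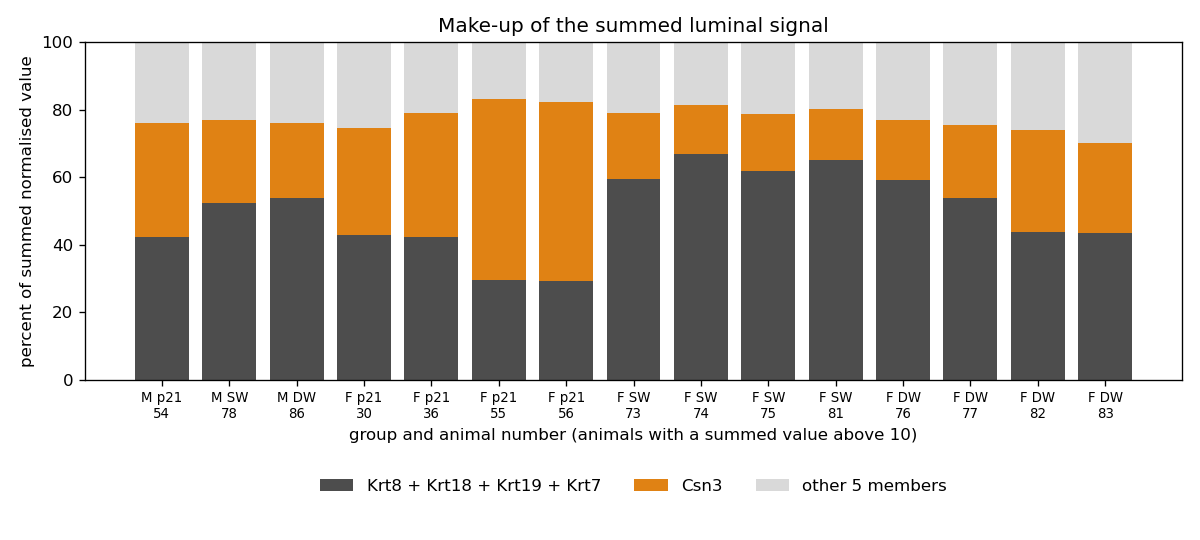
Make-up of the summed normalised value of the 10 luminal genes in percent, for the 15 animals whose sum exceeds 10: the 4 keratins, Csn3 and the other 5 genes. The Csn3 part is 31.8% to 53.7% in the 4 p21 females and 14.4% to 19.5% in the 4 SW females.

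Values were also divided by the annotated exon length of each gene in kilobases (kb, GENCODE M21), and the members were ranked within each female group. This length was 4152 bases for Csn3 and 1437 for Krt18. The length of the transcripts present was not measured, so the ranks of different genes depend on these annotated lengths. In p21 females Csn3 had the highest mean, a normalised value of 10.3 ± 8.00 per kb, and Krt18 (7.45 ± 3.73), Krt8 (5.15 ± 2.97), Krt19 (4.96 ± 2.43) and Epcam (4.37 ± 1.84, SD, n = 4 each) came next. Csn3 was above Krt18 in females 55 (5.83 and 2.70 per kb) and 56 (21.9 and 10.9) and below it in females 30 (4.44 and 6.29) and 36 (8.88 and 9.91). Without female 56 the means were 6.39 for Csn3 and 6.30 for Krt18, so these genes were not separated at p21 on this scale. In SW females Krt18 (44.2 ± 5.22), Krt19 (41.9 ± 7.11) and Krt8 (31.7 ± 4.76) led, with Epcam at 17.0 ± 3.06 and Csn3 next at 14.1 ± 3.10 (SD, n = 4 each). The top pair, Krt18 and Krt19, changed places between SW females, whereas each of Krt19, Krt8, Epcam and Csn3 was above the next in every SW animal. In DW females Krt19 (18.8 ± 9.52) and Krt18 (18.5 ± 8.71) were level, and Csn3 followed Krt8 at 9.74 ± 1.95 (SD, n = 4 each). Elf5 was the lowest of the 10 per kb in both p28 female groups, at 0.900 ± 0.163 in SW (SD, n = 4).

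Other epithelial genes were read from lists beside the members. Of 33 epithelial junction and identity genes, 27 were higher in SW females than in SW males and 27 rose from p21 to SW in females, with list medians of 1.48 and 1.02 against 0.01 for all genes in each, where 3.36% and 7.39% of all genes were called higher. The count from p21 to SW was 14 with edgeR and 15 with DESeq2. Cdh1, which encodes E-cadherin, rose by 1.86 (limma adjusted p 0.0028), the claudin gene Cldn4 by 2.16 (limma adjusted p 1.3e-07) and Cgn, which encodes the tight junction plaque protein cingulin, by 1.73 (limma adjusted p 0.00042). From p21 to DW 8 of the 33 rose (5.95% of all genes; 1 with edgeR and 3 with DESeq2), and 7 of the 33 were lower in DW than in SW females (0.812% of all genes; 0 with edgeR and 1 with DESeq2), among them the ETS factors Elf3 (-1.10, limma adjusted p 0.0027) and Ehf (-0.97, limma adjusted p 0.042). Without females 82 and 83, 15 of the 33 were called from p21 to DW and the 7 between DW and SW were lost. Over all genes limma then called 1392 from p21 to DW and 7 between DW and SW, against 1938 and 204 with all animals. With all animals, edgeR called 1472 and DESeq2 1995 of all 16005 genes from p21 to SW in females. From p21 to DW these counts over all genes were 1666 and 2376.

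Of 15 hormone-sensing luminal genes, 11 rose from p21 to SW in females (7.39% of all genes; 5 with edgeR and 6 with DESeq2). From p21 to DW 2 of the 15 rose, close to the share of all genes that rose (5.95%). Without females 82 and 83, 6 of the 15 and 1392 of all genes were called. Between SW and DW females 1 of the 15, Gata3, fell (-1.37, limma adjusted p 0.0075), where 0.812% of all genes fell. Without females 82 and 83, 0 of the 15 and 7 of all genes were called there. Pgr, the progesterone receptor gene, rose by 2.10 (limma adjusted p 2.4e-05), and Foxa1, the pioneer factor of estrogen receptor action, by 1.95 (limma adjusted p 0.018), whereas Esr1, which other cells of the depot also express, differed by 0.01. Of 18 luminal progenitor and milk genes, 13 rose to SW (7.39% of all genes; 3 with edgeR and 7 with DESeq2). From p21 to DW 2 of the 18 rose, Trf and Wfdc18, again close to the share of all genes (5.95%). Without females 82 and 83, 1 of the 18 and 1392 of all genes were called. The list median of DW minus SW was -0.45, against -0.02 for all genes. Ltf, the lactoferrin gene, rose by 1.30 (limma adjusted p 0.029) and Wfdc18 by 1.43 (limma adjusted p 0.0028), while the beta-casein gene Csn2 had a mean of 0.126 in SW females. Csn1s1, Csn1s2a, Wap and Olah were not analysed here.

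Of 12 basal and myoepithelial genes, 4 rose from p21 to SW in females and 1, Lgr6, fell, where 7.39% of all genes rose and 11.6% changed in either direction. With edgeR 1 of the 12 was called and with DESeq2 2, where 1472 and 1995 of all 16005 genes were called. These counts were close to the share of all genes with either tool. Krt5 rose by 1.53 (limma adjusted p 0.018) and the oxytocin receptor gene Oxtr by 2.88 (limma adjusted p 1.5e-05), and Krt14 (0.83, limma adjusted p 0.058) did not pass. Oxtr and Lgr6 moved the same way in males, with means of 8.26 at p21 and 36.2 in SW for Oxtr. For Lgr6 the male means were 10.1 and 1.69, while Krt5 averaged 0.324 and 0.162 in these males. The changes of Oxtr and Lgr6 were thus not particular to females. Skin was measured through 6 genes, with a summed value of 25.9 to 40.8 in SW females and 28.2 to 37.9 in SW males, and 1 of them was called between these groups. Between SW females and SW males the list medians were -0.27 for lymph node, -0.82 for muscle and -0.17 for fat cell genes, against 3.98 for the luminal members.

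**Figure D5:**
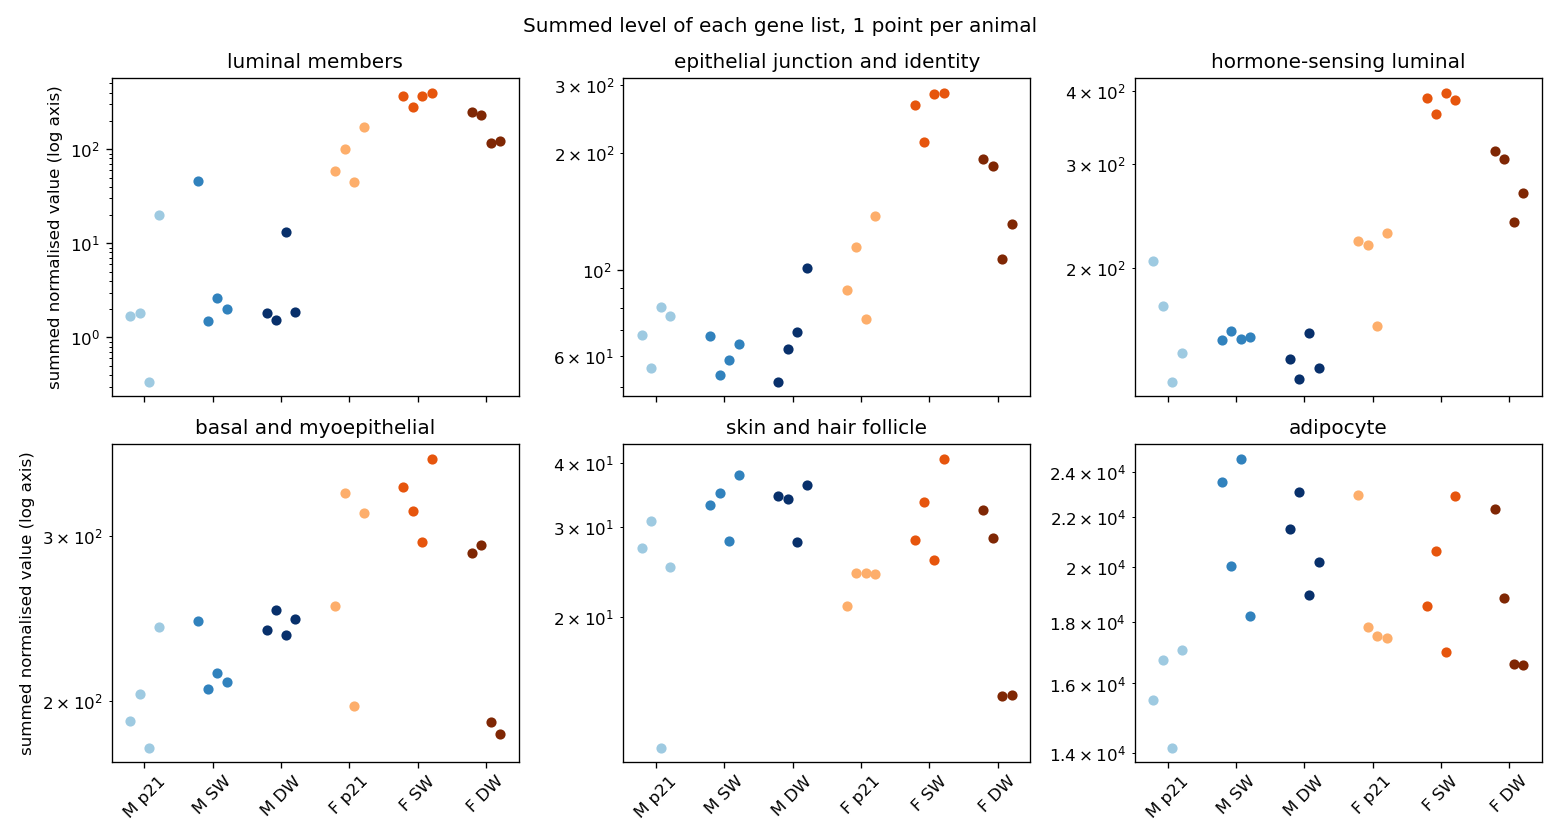
Summed normalised value of 6 gene lists on a log axis, with 1 point per animal (M male, F female). Luminal sums span 0.339 to 397.1 over all animals, while fat cell sums span 14155 to 24597.

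The genes most like the members were sought over the 12 females, after each group's mean was removed, among 11210 genes with a mean value of at least 5 in 1 or more female groups. Cgn (Pearson r 0.978) and Cdh1 (0.974) were closest to the mean log2 level of the members, and the 10 closest also held Prom2 (0.958), Ptn (0.956), Tfap2a (0.955), Foxa1 (0.952), Plet1 (0.948) and Tmprss13 (0.946), where the median gene had 0.045. The genes share the 12 libraries and their base composition, females 82 and 83 included, and no p is given. Within the set, Krt8 followed the other 9 most closely (r 0.975), and Csn3 (0.72) and Cldn3 (0.614) least.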

How the data were processed

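Per the labels' protocols, poly(A) RNA from the inguinal fat of 24 mice was extracted with a Qiagen RNeasy lipid tissue kit. Libraries were made with KAPA mRNA HyperPrep reagents and run on an Illumina NovaSeqXPlus. The submitters' processing notes name fastp, HISAT2, featureCounts, DESeq2 1.38.3 and mm10, with no roles. The deposited values are a signal: the reads of a gene divided by 1 factor per sample. In every sample 100% of values were whole multiples of the worth of 1 read (tolerance 0.01), so whole reads were recovered. The authors also deposited log2 fold changes and adjusted p-values, which were not used. Of 16208 rows, 90 repeated ones were left out. Ages followed the age labels, since titles of p21 libraries say otherwise. Nothing pairs the animals.

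Genes were kept by filterByExpr (minimum count 10) and tested with limma 3.58.1 in R 4.3.3 (lmFit, eBayes with a variance trend) on log2(value + 1), all 24 animals in 1 fit with 6 group coefficients and 18 residual degrees of freedom, Benjamini-Hochberg over all 16005 genes, called under 0.05. Sex differences are female minus male. The scripts were tested on simulated data. Alternatives were edgeR 4.0.16, DESeq2 1.42.0, another pseudocount, filter, trend or sample set, the run of animal numbers, and each animal left out; leaving out DW females 82 and 83, and the GC correction in 20 bins, were chosen after seeing the data. The 10 members and all lists were chosen with earlier results of these data known. Named genes are all members, up to 5 called genes per list and comparison by size of change, list genes for context, and the 10 genes most like the members, of which some are not reported here.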

Additional observations from a re-analysis of the deposited data

Results flagged for a closer look

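A male of each group was high for the luminal genes. There were 72 sets of 4 animals (10 members, their mean level and the Csn3 share, each in 6 groups). In 25 of them 1 animal was far from the other 3, judged by its gap to the next animal as a part of the whole range. Most of these came from males 54, 78 and 86. Chance gives about 3.6 for independent sets. These sets share animals, and the mean level and the Csn3 share are computed from the members, so 25 cannot be read against 3.6. Values are log2(value + 1). In p21 male 54, Krt8 was 1.82, Krt18 1.94, Krt7 0.852, Elf5 0.654, Csn3 2.94 and Tmprss2 0.942, with the mean of the members at 1.32 and the Csn3 share at 33.6%. In SW male 78, Krt18 was 2.98, Krt19 3.26, Cldn7 0.591, Elf5 0.756, Csn3 3.62 and Tmprss2 2.16, with the mean at 2.10 and the Csn3 share at 24.5%. In DW male 86, Krt8 was 1.52, Krt18 1.38, Krt7 1.01, Csn3 1.98 and Tmprss2 0.973, with the mean at 1.07 and the Csn3 share at 22.4%. The other males of these groups had a mean of the members of 0.0431 to 0.294.

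Low animals were flagged as well: Cldn3 was 0.0202 in DW male 79, on 2 reads, and Elf5 was 2.29 in SW female 74, against 2.70 to 2.79 in the other SW females.

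The rise from p21 to SW differed between the sexes, by the interaction in limma, for Krt7 (2.04), Cldn3 (1.64) and Cldn7 (1.32), each larger in females; the edgeR and DESeq2 interactions called none of the 3.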

How the results depend on the processing

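Of 1080 values of single members under alternatives, 908 kept their direction and their side of the threshold, 152 kept the direction and lost the call, 13 gained one and 7 changed sign. Those 7 were small: Csn3 from p21 to DW in females was -0.0599 with edgeR and TMM, -0.0553 with DESeq2, -0.0551 with edgeR and DESeq2 size factors and -0.12 without p21 female 30 (-0.12 to 0.63 with 1 animal left out), and Tmprss2 in DW against SW females was -0.14 without SW female 74, -0.06 without DW female 76 and -0.08 without DW female 77 (-0.14 to 0.19 with 1 animal left out). No paired analysis was possible because no animal number is shared between groups.

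Members called (of 10), with edgeR and TMM and again with edgeR and DESeq2 size factors, were 0 for sex at p21, 6 for sex at SW, 4 from p21 to SW and 0 from p21 to DW in females, 0 for DW against SW females and 0 for the sex by age interaction under SW. DESeq2 called 3 for sex at p21, 4 from p21 to SW, and 0 from p21 to DW, for DW against SW and for that interaction. A pseudocount of 0.1 gave 5 from p21 to SW, 1 from p21 to DW, 1 for DW against SW in females and 0 for the interaction. With only the groups compared, the counts were 0 for sex at p21, 2 from p21 to DW and 0 for DW against SW in females. Without DW females 82 and 83 the DW against SW count was 0. With 1 animal left out, the counts ranged from 1 to 8 for sex at p21, 10 to 10 at SW, 9 to 10 at DW, 9 to 9 from p21 to SW, 2 to 5 from p21 to DW and 1 to 4 for DW against SW in females, from 2 to 9 for the sex by age interaction under SW, and from 0 to 1 for sex by weaning (1 without DW female 77). The cause of these shifts was not tested.

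Over all genes, DW against SW females called 204 by limma, 71 with edgeR and TMM, 290 with DESeq2, 1 with only the groups compared, 7 without females 82 and 83, and 45 to 1996 with 1 animal left out. Sex at p21 called 57, 15 with edgeR and TMM, 115 with DESeq2 and 18 to 99 with 1 animal left out. Depth limits the male values, many of which rest on fewer than 10 reads.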
